A study of Mus musculus with 16 samples.

Results

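Acinar cells of the exocrine pancreas make and release digestive enzymes, and a small set of transcription factors together with a receptor for the gut hormone cholecystokinin runs that programme. The genes described here are 5 acinar transcription factors (Ptf1a, Rbpjl, Bhlha15, Nr5a2 and Gata4) and the cholecystokinin receptor Cckar. They were taken by name, 6 of the 54532 genes listed in each of the deposited tables, and all 6 were found in both. No expression value entered their choice by name, but earlier results of these data were known when they were chosen.

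The data are RNA sequencing of KPC1199, a mouse pancreatic cancer cell line, sorted from tumours grown in the pancreas of host mice. There were 4 sorted groups of 2 libraries each: WT cells, cells overexpressing Ly6d, cells with high Ly6d expression and cells with low Ly6d expression. The first pair addresses how Ly6d affects pancreatic cancer, and the second compares cells by their level of the same gene; no source used here gives the vector, the gate of the sort, the host strain and age, or whether Ly6d-high and Ly6d-low cells came from the same tumours. All groups share the 1 line and its growth in the pancreas, an organ whose own acinar cells express every gene described here. A further 8 samples of the 16 are whole tumours and were not analysed here. The labels do not say whether the libraries of a group came from separate animals, so p-values measure only the spread between these libraries, which may be technical.

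The assignment of the overexpression columns is an inference. Their names carry letters that the labels use for overexpression tumours, while the labels give the sorted overexpressing cells another library name, and the WT column letters occur in the names of both sorted and tumour WT samples. Ly6d itself, which encodes a small protein anchored in the outer cell membrane, followed these names. Its level cannot tell sorted overexpressing cells from overexpression tumours. WT libraries had 1260 and 1066 CPM, which are counts scaled to the library total (a fixed total for every library), and overexpression libraries 3380 and 3423 CPM. Ly6d-low libraries had 1.56 and 0.352 TPM, which are scaled to gene length as well, and Ly6d-high libraries 697 and 504 TPM. Library totals were 15449241 to 18290325 counts in the count table and 15063975 to 20509539 reads recovered from the TPM table. All 8 listed markers of tumour epithelium, keratins and adhesion genes among them, had reads in every library. Their summed levels were 12588 and 12228 CPM in WT and 12920 and 13597 CPM in overexpression libraries. In Ly6d-low libraries they were 56140 and 57309 TPM, and in Ly6d-high libraries lower, at 40228 and 39617 TPM.

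The factors act together in the normal pancreas. Ptf1a is a basic helix-loop-helix protein that pairs with a broadly expressed E protein and with an RBPJ-type subunit to form the PTF1 complex, which in mature acinar cells holds Rbpjl in place of Rbpj and switches on digestive enzyme genes. Bhlha15, also called Mist1, organises the secretory apparatus; Nr5a2 is an orphan nuclear receptor that works beside PTF1 on enzyme genes; and Gata4 is a zinc-finger factor of pancreatic progenitors and acinar cells. Cckar is a receptor coupled to Gq proteins that raises calcium in acinar cells and triggers enzyme release.

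Promoter sequences are shown for the 3 basic helix-loop-helix and PTF1 genes, because PTF1 binds an E-box next to a TC-box, the site bound by RBPJ-type subunits. They come from RefSeq, build GRCm38.p6, which listed 4 of the 6 genes; Gata4 and Cckar had no entry. Windows of 250 bases before each start were searched on both strands for the E-box CANNTG, the TC-box TTCCCA, the NR5A motif AAGGTCA and the GATA motif AGATAA. Capitals mark E-boxes and TC-boxes, a TC-box on the other strand reading TGGGAA. The Ptf1a window is chr2:19445413-19445662, plus strand, the Rbpjl stretch chr2:164402944-164403140, plus strand, without the bases that the tables count as part of the gene, and the Bhlha15 window chr5:144190036-144190285, plus strand.
Rbpjl: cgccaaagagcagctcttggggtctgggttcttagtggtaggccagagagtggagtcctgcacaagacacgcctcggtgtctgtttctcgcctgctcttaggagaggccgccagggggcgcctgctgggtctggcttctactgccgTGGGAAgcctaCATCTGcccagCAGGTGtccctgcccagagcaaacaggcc
Ptf1a: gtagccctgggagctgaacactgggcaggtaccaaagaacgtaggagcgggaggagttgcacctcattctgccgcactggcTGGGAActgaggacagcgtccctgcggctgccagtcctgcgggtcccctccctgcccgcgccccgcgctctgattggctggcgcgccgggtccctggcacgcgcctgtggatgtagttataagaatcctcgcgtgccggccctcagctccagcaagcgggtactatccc
Bhlha15: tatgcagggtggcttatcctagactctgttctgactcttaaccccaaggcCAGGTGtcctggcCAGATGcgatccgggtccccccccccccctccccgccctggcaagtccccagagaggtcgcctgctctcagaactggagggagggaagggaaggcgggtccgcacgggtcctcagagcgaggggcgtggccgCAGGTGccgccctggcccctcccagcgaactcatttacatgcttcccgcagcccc
The Rbpjl stretch held a TC-box at 104 to 99 bases before the start, followed by E-boxes at 93 to 88 and at 82 to 77 bases before it, and a GATA motif lay at 31 to 26 bases, outside the stretch printed. The Ptf1a window held a TC-box and no E-box, the Bhlha15 window 3 E-boxes and no TC-box, and the first of the Nr5a2 windows 2 E-boxes and 2 GATA motifs, and its other window 3 E-boxes. Of 32851 promoter windows of the same length, 66.2% held an E-box, 21.6% a TC-box, 9.99% the GATA motif and 4.08% the NR5A motif, which none of these genes held. An E-box and a TC-box starting within 30 bases of each other occurred in 5.93% of all windows and, among these 4 genes, in Rbpjl. These matches describe letters, not binding.

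Cckar and 3 of the transcription factors were lower in Ly6d-overexpressing than in WT cells. Of the 6 genes, 5 had enough counts to be tested, and 4 of them fell (Cckar, Rbpjl, Nr5a2 and Bhlha15), against a background of 1.84% of all 15771 tested genes called lower and 2.32% called higher. The median log2 fold change of the 5 tested genes was -1.73, and that of all tested genes -0.00. Gata4 did not pass the test, and Ptf1a had too few counts to be tested.

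Cckar (chromosome 5, 53697776 to 53707705, minus strand, GRCm38) had 28.6 and 28.0 CPM in WT and 6.18 and 5.61 CPM in overexpression. Both WT libraries lay well above both overexpression libraries, and the libraries of each group lay close together. The log2 fold change was -2.28 ± 0.17 (SE), with an adjusted p of 1.22e-05 by edgeR's quasi-likelihood test. Summed over a group, 950 counts in WT stood against 214 in overexpression, a 4.80-fold ratio at equal depth with a 95% exact interval of 4.13 to 5.59. This interval and those below cover counting error only.

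Rbpjl, the acinar subunit of PTF1 whose promoter is printed above (chromosome 2, 164403141 to 164415448, plus strand), was at 7.68 and 7.18 CPM in WT and at 1.31 and 0.611 CPM in overexpression. Neither overexpression library came near the WT level. It had the largest fall of the 5 tested genes, a log2 fold change of -2.96 ± 0.43 (SE; edgeR, adjusted p = 0.00243), resting on 250 counts in WT and 35 in overexpression. Matn4 overlaps Rbpjl on the other strand and had 35, 34, 4 and 3 counts in the same libraries; no source used here says whether counting used strand, so reads shared by the genes cannot be told apart.

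Nr5a2 (chromosome 1, 136842571 to 136960448, minus strand) was at 14.5 and 15.7 CPM in WT and at 4.48 and 6.72 CPM in overexpression. The groups did not overlap, and the overexpression libraries differed more from each other than the WT libraries did. Its log2 fold change was -1.45 ± 0.24 (SE; edgeR, adjusted p = 0.00589).

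Bhlha15 (chromosome 5, 144190286 to 144194441, plus strand) was at 9.44 and 7.38 CPM in WT and at 1.80 and 3.33 CPM in overexpression. WT was the higher group in every pairing of libraries, with spread in both groups. The log2 fold change was -1.73 ± 0.36 (SE; edgeR, adjusted p = 0.0201). Without WT replicate 1 the adjusted p was 0.105; over all alternatives it ranged from 1.59e-05 to 0.105. Bhlha15 is also known from plasma cells, and the summed level of 9 plasma and B cell markers was 8.56 and 6.47 CPM in WT and 89.4 and 92.0 CPM in overexpression; their part in its level was not tested.

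Ptf1a (chromosome 2, 19445663 to 19447501, plus strand) had 34 and 8 counts in WT and 8 and 0 in overexpression, or 1.88, 0.518, 0.437 and 0 CPM. The lower WT library lay just above the higher overexpression library, so the groups were separated only narrowly. The group ratio was 5.68 with an exact interval of 2.63 to 14.0. With no filter on low counts its log2 fold change was -2.44 ± 1.10 (SE) and edgeR's adjusted p 0.262. Ptf1aos, antisense to Ptf1a, had no counts in any library.

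Gata4 (chromosome 14, 63198922 to 63271692, minus strand) was at 10.3 and 8.74 CPM in WT and at 8.26 and 8.39 CPM in overexpression. The groups did not overlap, but the lower WT library was close to both overexpression libraries. The log2 fold change was -0.21 ± 0.22 (SE; edgeR, adjusted p = 0.703), and the WT to overexpression ratio of 1.1495 had an exact interval of 0.979 to 1.35. It had 321 counts in WT and 302 in overexpression.

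**Figure D1:**
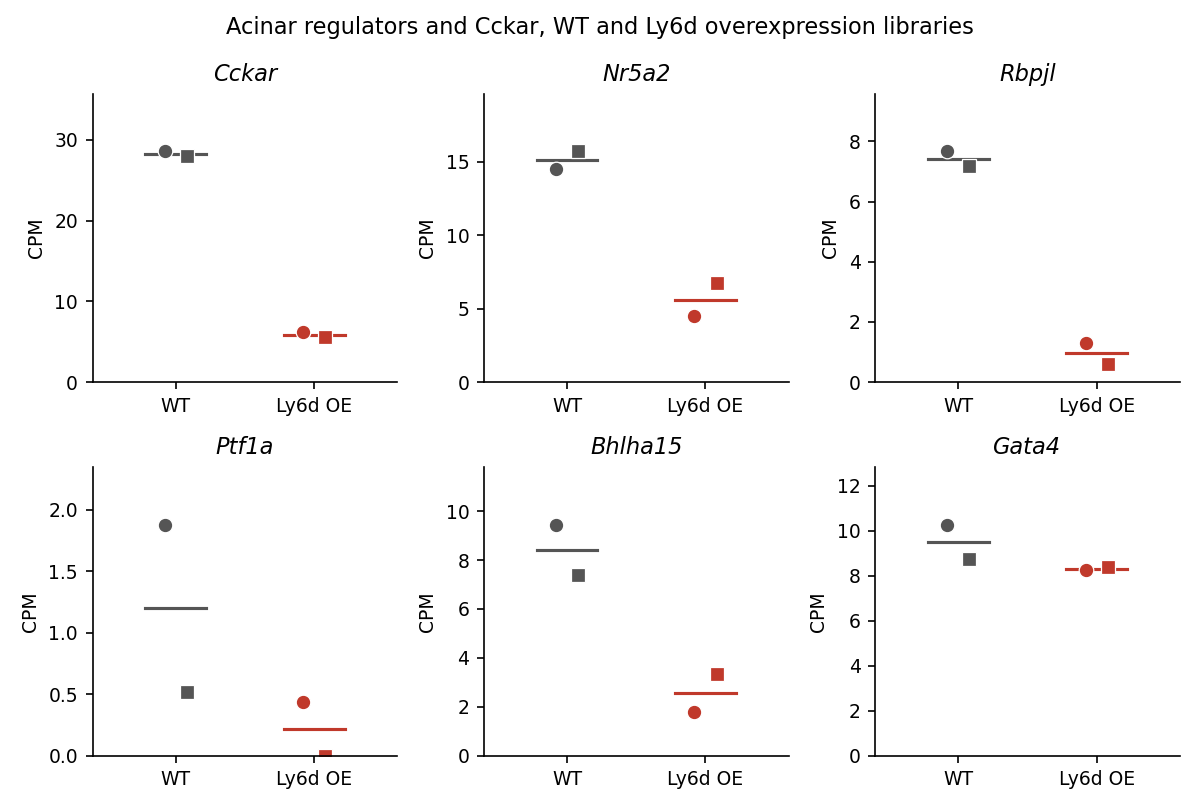
Level of each gene in CPM (vertical axes, from 0) in the WT and Ly6d overexpression (OE) libraries; points are single libraries (circle, replicate 1; square, replicate 2) and lines group means over 2 libraries. Cckar falls from 28.6 and 28.0 to 6.18 and 5.61 CPM, while the Gata4 points lie between 8.26 and 10.3 CPM.

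In the comparison of Ly6d-high with Ly6d-low cells, Cckar and 3 transcription factors were higher in the Ly6d-high cells. Of 5 genes tested, 4 rose (Cckar, Ptf1a, Nr5a2 and Rbpjl), against a background of 8.64% of all 14625 tested genes called higher and 1.17% called lower. Ptf1a, Nr5a2 and Rbpjl reached the minimum of 1 TPM only in the Ly6d-high libraries, so their entry into the test already required a difference, and neither the count of 4 nor a median over the tested genes is support by itself. Differences are on the log2(TPM + 1) scale, which understates changes of low genes. On that scale the median of all tested genes was 0.25.

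Cckar was at 1.35 and 1.60 TPM in the Ly6d-low libraries and at 9.79 and 12.4 TPM in the Ly6d-high libraries. Every Ly6d-high value was far above every Ly6d-low value. The difference was 2.28 ± 0.20 (SE; limma, adjusted p = 0.000705), and 593 reads against 75 gave a ratio at equal depth of 6.99 (95% exact interval 5.49 to 9.02). Cckar passed the threshold in all 11 alternative settings.

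Ptf1a was at 0 and 0.260 TPM in Ly6d-low and at 1.98 and 2.59 TPM in Ly6d-high cells, resting on 0, 3, 24 and 26 reads. One Ly6d-low library had no Ptf1a read, and the groups were far apart. The difference was 1.54 ± 0.25 (SE; limma, adjusted p = 0.0113), and the ratio of reads 14.7, with a wide exact interval of 4.76 to 73.9. The call was lost with no filter on low values (adjusted p = 0.0578) and without Ly6d-high replicate 2 (adjusted p = 0.0944).

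Nr5a2 was at 0.421 and 0.222 TPM in Ly6d-low and at 2.28 and 3.26 TPM in Ly6d-high cells. The groups did not overlap, with Ly6d-high replicate 2 the highest. The difference was 1.51 ± 0.25 (SE; limma, adjusted p = 0.0113), and the ratio of reads 8.35 (5.52 to 13.2). The call was lost with no filter on low values (adjusted p = 0.0692) and without Ly6d-high replicate 2 (adjusted p = 0.0811).

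Rbpjl was at 0.231 and 0.274 TPM in Ly6d-low and at 1.41 and 1.63 TPM in Ly6d-high cells. The libraries of each group lay close together and the groups apart. The difference was 1.01 ± 0.23 (SE; limma, adjusted p = 0.0416), and the ratio of reads 5.62 (3.49 to 9.51). This call passed in only 5 of 11 alternatives: it was lost with no filter (adjusted p = 0.0801), a pseudocount of 0.1 (0.0509) and TMM factors (0.0656), and without Ly6d-high replicate 2 (0.0870), Ly6d-low replicate 1 (0.176) or Ly6d-low replicate 2 (0.124). With edgeR on the recovered reads its adjusted p was 0.00817. Matn4, on the other strand, had 3 and 5 reads in the Ly6d-low and 4 and 23 in the Ly6d-high libraries.

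Bhlha15 was under the filter at 0.237 and 0.599 TPM in Ly6d-low and at 1.11 and 0.9898 TPM in Ly6d-high cells. Its groups did not overlap, but with 5 and 16 against 31 and 23 reads the gap was small. The ratio of reads was 2.27 (1.35 to 3.97), and with edgeR on the recovered reads the log2 fold change was 0.9986 ± 0.52 (SE; adjusted p = 0.245). The summed plasma and B cell markers were at 2.98 and 1.61 TPM in Ly6d-low and at 116 and 98.6 TPM in Ly6d-high cells; their part was not tested here either.

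Gata4 was at 2.08 and 1.71 TPM in Ly6d-low and at 1.88 and 2.43 TPM in Ly6d-high cells. These values overlapped. The difference was 0.12 ± 0.22 (SE; limma, adjusted p = 0.720), its sign turned in some alternatives, and the ratio of reads was 1.08 (0.822 to 1.42).

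**Figure D2:**
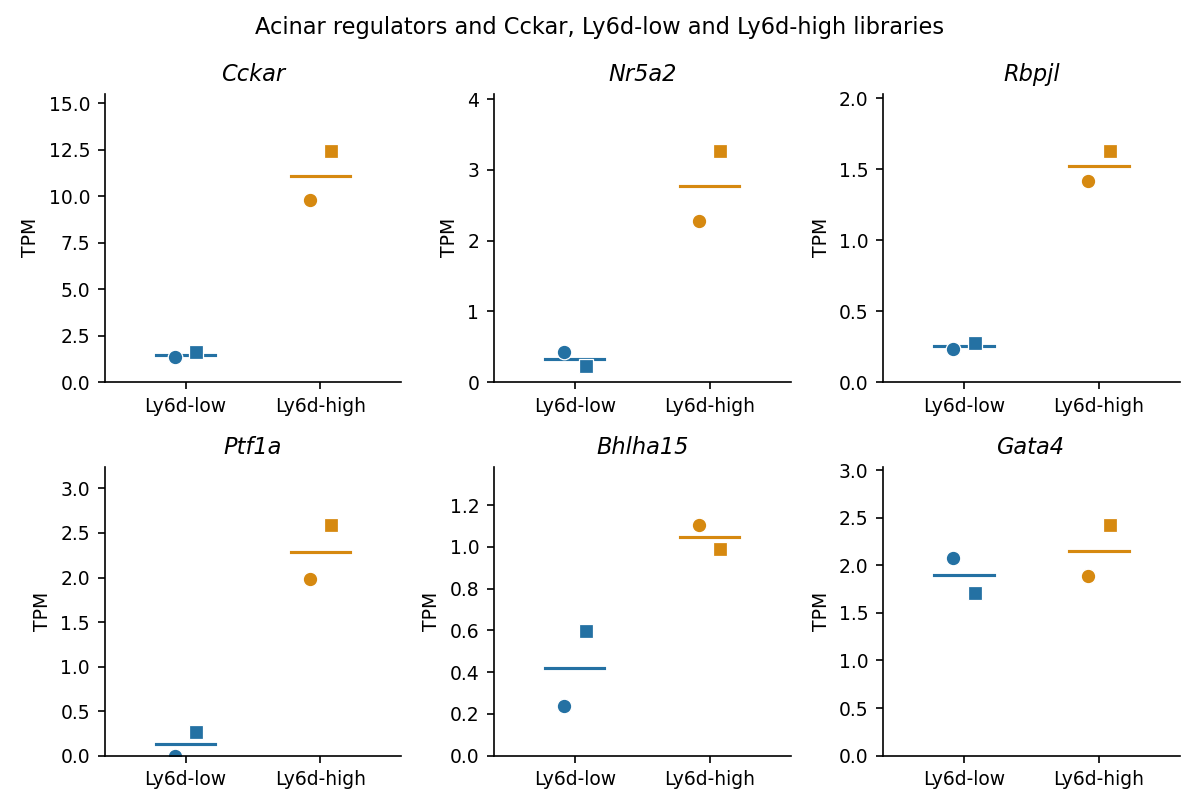
Level of each gene in TPM (vertical axes, from 0) in the Ly6d-low and Ly6d-high libraries; points are single libraries (circle, replicate 1; square, replicate 2) and lines group means over 2 libraries. Cckar rises from 1.35 and 1.60 to 9.79 and 12.4 TPM, while the Gata4 values of the groups overlap.

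The comparisons share no library, but their tables were normalized separately and their scales differ, so no test was made between them. Cckar, Nr5a2 and Rbpjl were called in both, lower with Ly6d overexpression and higher in Ly6d-high cells. Nr5a2 and Rbpjl entered the second test only through the Ly6d-high libraries, and Rbpjl passed there in only 5 of 11 alternatives. Ly6d was higher both in the overexpressing and in the Ly6d-high cells, but these contrasts differed in level and size. Its means were 3925 TPM in WT, 13654 TPM in overexpression, 0.954 TPM in Ly6d-low and 600 TPM in Ly6d-high cells. Gata4 was called in neither. Ptf1a and Bhlha15 were each tested in 1 comparison only.

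**Figure D3:**
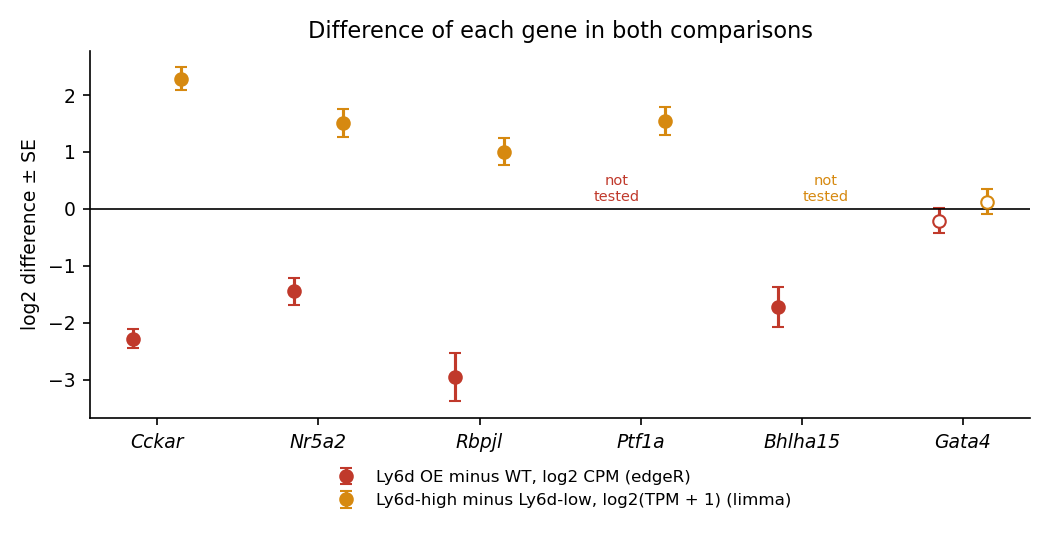
Difference of each gene with its standard error (vertical axis, log2 units), overexpression minus WT from edgeR (red) and Ly6d-high minus Ly6d-low on log2(TPM + 1) from limma (orange); filled points passed an adjusted p of 0.05 and open points did not. Cckar lies at -2.28 and 2.28, and both Gata4 points lie near 0.

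Between genes, levels were compared per length, in TPM. In WT cells Cckar was highest at a mean of 19.1 TPM, followed by Nr5a2 (6.32), Gata4 (6.11) and Bhlha15 (6.08), whose ranges overlapped, and by Rbpjl (3.23) and Ptf1a (2.14), whose ranges also overlapped. The WT libraries differed from each other more in TPM than in CPM, Cckar being at 15.9 and 22.3 TPM. Under Ly6d overexpression Gata4 led at 6.37 TPM, above Cckar at 4.78; Nr5a2 (2.83) and Bhlha15 (2.19) overlapped, and Rbpjl (0.502) and Ptf1a (0.436) were lowest and overlapped. Cckar was again highest in Ly6d-high cells at 11.1 TPM, followed by Nr5a2 (2.77), Ptf1a (2.29) and Gata4 (2.16), neighbours that overlapped, then Rbpjl (1.52) and Bhlha15 (1.05). Ly6d-low cells had Gata4 first at 1.89 TPM and Cckar next at 1.47 TPM, and the other 4 genes, from 0.418 TPM for Bhlha15 to 0.130 TPM for Ptf1a, each overlapped the next. Gata4 thus stood above Cckar in the groups where Cckar was low, and below it in the others.

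Most listed digestive enzyme genes were lower under overexpression, and fewer of them were called, as higher, in Ly6d-high cells. Of 38 tested genes of a list of 40 digestive enzymes and granule proteins, 36 were lower under overexpression and none higher, with a median log2 fold change of -3.80. The share called lower over all tested genes was 1.84%. Prss1 was among those called but entered that test only through the WT libraries. The pancreatic lipase Pnlip fell from 1913 ± 144 to 82.8 ± 0.621 CPM, the elastase Cela2a from 2332 ± 104 to 145 ± 7.87 CPM, the protease Ctrl, related to chymotrypsin, from 642 ± 2.12 to 35.0 ± 0.970 CPM and the ribonuclease Rnase1 from 569 ± 21.8 to 46.0 ± 0.612 CPM (SD, n = 2). In Ly6d-high cells 25 of 36 tested genes of the list were higher and none lower, with a median of 1.06, where 8.64% of all tested genes were higher. The other 11, Pnlip, Cela1, Ctrc, Prss1 and 5 amylase genes among them, did not pass the test, and 3 of the 36 differences were below 0. With TMM factors on the TPM 14 were higher and none lower, and with edgeR on recovered reads 19 of 38 were higher and 1 lower. The lipase-related Pnliprp1 rose from 483 ± 22.9 to 2139 ± 143 TPM, the chymotrypsinogen Ctrb1 from 1073 ± 17.6 to 4140 ± 452 TPM and the carboxypeptidase Cpa1 from 252 ± 1.63 to 761 ± 83.7 TPM. In such RNA samples fewer cells of a type and less RNA per cell cannot be told apart.

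Summed over the list, enzyme RNA was at 28739 and 29242 CPM in WT and at 2217 and 2411 CPM in overexpression, a 12.5-fold fall in the mean. It was at 9880 and 9979 TPM in Ly6d-low and at 24005 and 21566 TPM in Ly6d-high cells, 2.29-fold higher in the latter. The 6 genes were therefore also expressed per 10000 units of that sum, with no test. Per enzyme unit, Cckar was at 9.95 and 9.56 in WT and at 27.9 and 23.3 in overexpression, and Nr5a2 at 5.05 and 5.38 against 20.2 and 27.9. For both genes all overexpression values lay above the WT values, so the gene fell by a smaller factor than the enzymes did. Bhlha15 was likewise at 3.29 and 2.52 in WT and at 8.14 and 13.8 in overexpression, and Gata4 at 3.57 and 2.99 against 37.2 and 34.8. Rbpjl was nearest to the enzymes, at 2.67 and 2.46 in WT and at 5.92 and 2.53 in overexpression, 1 overexpression library lying between the WT libraries. Ptf1a, at 0.653 and 0.177 against 1.97 and 0, overlapped.

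In the Ly6d-high cells the same measure was higher than in Ly6d-low cells for Cckar, at 4.08 and 5.76 against 1.36 and 1.60, and for Nr5a2, at 0.951 and 1.51 against 0.426 and 0.222. It was also higher for Rbpjl, at 0.589 and 0.754 against 0.234 and 0.275, and for Ptf1a, at 0.827 and 1.20 against 0 and 0.261. These 4 genes differed between the groups by a larger factor than the enzyme sum. Bhlha15, at 0.461 and 0.459 against 0.240 and 0.601, overlapped, and Gata4 was lower per enzyme unit in Ly6d-high cells, at 0.785 and 1.13 against 2.10 and 1.71.

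**Figure D4:**
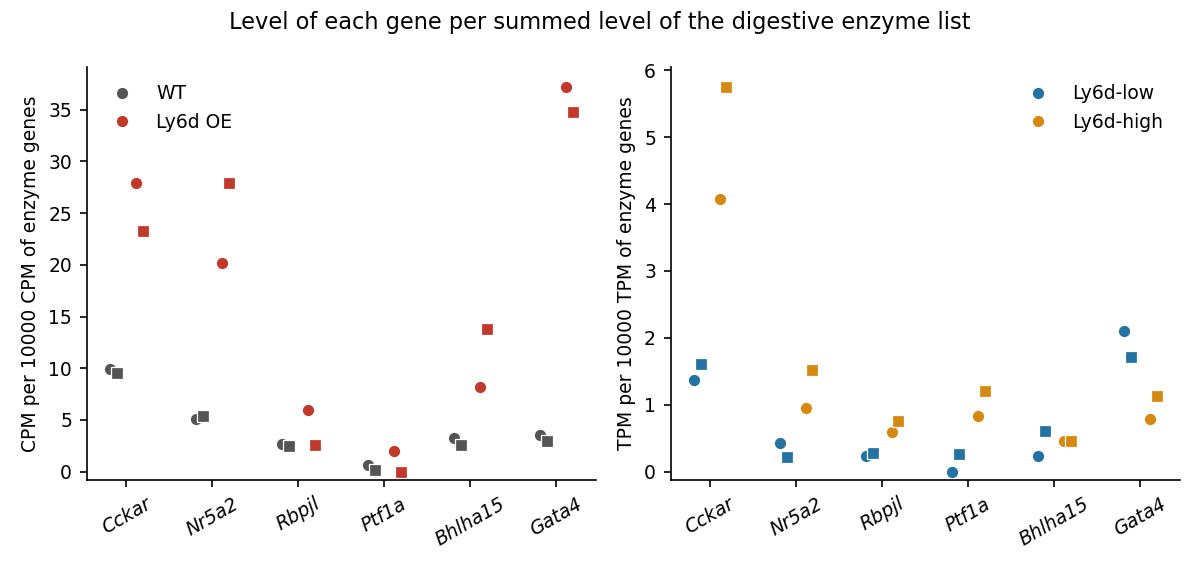
Level of each gene per 10000 CPM (left) or TPM (right) of summed digestive enzyme and granule protein RNA; points are single libraries (circle, replicate 1; square, replicate 2). Per enzyme unit Gata4 lies at 3.57 and 2.99 in WT and at 37.2 and 34.8 in overexpression, and Cckar at 1.36 and 1.60 in Ly6d-low and at 4.08 and 5.76 in Ly6d-high cells.

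Of 12 tested partners and cofactors, 1 was higher and none lower under overexpression, with a median of -0.00, where 2.32% of all genes were called higher. It was Id1, an inhibitor of helix-loop-helix factors that sequesters E proteins, which rose from 88.9 ± 11.4 to 118 ± 1.09 CPM (SD, n = 2; edgeR, adjusted p = 0.0345). The RBPJ subunit Rbpj, at 92.0 and 93.2 CPM on average, and the E protein Tcf3, at 145 and 146 CPM, were not called. Tcf12, a further E protein, had means of 88.6 CPM (WT) and 105 CPM (overexpression; adjusted p = 0.150). In Ly6d-high cells 2 of 11 partners were higher and none lower, where 8.64% of all genes were higher. Nr0b2, a corepressor that binds Nr5a2, rose from 3.51 and 2.54 to 29.96 and 38.9 TPM (limma, adjusted p = 0.000182), and Gata6, the closest paralog of Gata4, from 10.5 and 11.7 to 22.7 and 30.3 TPM (adjusted p = 0.0106). Under overexpression Gata6 had 50.2 ± 6.93 CPM in WT and 48.8 ± 4.83 CPM (adjusted p = 0.869), and Nr0b2 at 2.50 ± 1.04 and 0.578 ± 0.0325 CPM (adjusted p = 0.119).

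Of 25 other pancreatic and endoderm regulators tested under overexpression, 2 were higher and 1 lower. The shares over all tested genes were 2.32% and 1.84%. Prox1, a homeobox factor of pancreatic development, fell from 19.2 and 19.7 to 6.67 and 6.17 CPM (edgeR, adjusted p = 0.000444). It rose in Ly6d-high cells, from 0.375 and 0.343 to 4.56 and 5.99 TPM (limma, adjusted p = 0.00136). The Notch target Hes1 rose under overexpression from 137 ± 8.25 to 200 ± 10.5 CPM. In Ly6d-high cells 5 of 21 were higher and 1 lower, against 8.64% and 1.17% of all tested genes. However, 3 of the higher ones (Onecut1, Prox1 and Nkx6-1) reached 1 TPM only in the Ly6d-high libraries. The filter let these in through the group where they were high. Among the higher ones were the duct regulator Onecut1, from 0.241 and 0.477 to 8.91 and 11.8 TPM, and Xbp1, a factor of the secretory stress response, from 224 ± 0.0461 to 449 ± 40.7 TPM. Pdx1, the pancreatic master regulator, was named after its values were seen: it was at 29.3 ± 2.75 and 31.8 ± 4.47 CPM in WT and overexpression (adjusted p = 0.787).

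Among receptors that drive acinar and duct secretion, none of 7 tested was called under overexpression. Cckbr, the closest paralog of Cckar, was near 0 in all libraries, at 0.389 CPM and 0.0578 TPM at most. The muscarinic receptor Chrm3, the acinar acetylcholine receptor, named after its values were seen, had 1.70 ± 1.16 CPM (WT) and 1.55 ± 0.563 CPM (overexpression; adjusted p = 0.944). In the other comparison 2 receptors were tested. Sctr, the secretin receptor, was at 0.494 and 0.585 TPM in Ly6d-low and at 18.4 and 17.1 TPM in Ly6d-high cells (limma, adjusted p = 6.80e-05); it too reached the filter only in the Ly6d-high libraries, so a count of called receptors says nothing here. Its values under overexpression were 2.96 ± 1.22 CPM in WT and 0.824 ± 0.380 CPM (adjusted p = 0.142). Of the genes that relay Gq signals to calcium, 2 of 20 were higher under overexpression, the calcium pump Atp2a3 (69.2 to 100 CPM) and the kinase Prkca (150 to 187 CPM). Over all tested genes the share called higher was 2.32%. In Ly6d-high cells 4 of 17 were higher, against 8.64% of all tested genes, and of these Plcb4 reached 1 TPM only there. Among them were Rgs2, a brake on Gq signalling, from 3.13 to 45.3 TPM and the calcium release channel Itpr2, from 4.43 to 10.3 TPM.

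Of 18 tested secretory granule and polarity genes linked to Bhlha15, 5 were lower and none higher under overexpression, where 1.84% of all tested genes were lower. Aqp12, a water channel of acinar cells, fell from 7.40 and 6.54 to 0.273 and 0.111 CPM, and Tmed6, a protein of the secretory pathway, from 12.9 and 11.1 to 0.492 and 2.33 CPM. Both overexpression values of Aqp12 lay under the filter level of 0.554 CPM, so it entered the test through WT only. Tmed6 reached that level in only 1 overexpression library, so its entry needed WT libraries as well. In Ly6d-high cells 2 of 18 were higher, a share near the 8.64% of all tested genes. They were Aqp12, from 2.13 and 1.92 to 5.62 and 6.08 TPM, and the gap junction gene Gjb1, from 61.0 and 63.5 to 106 and 117 TPM. Of 15 tested duct and acinar-to-duct markers 1 was higher under overexpression, Krt20, where 2.32% of all tested genes were higher. In Ly6d-high cells 2 were higher and 6 lower, against 8.64% and 1.17% of all tested genes. Onecut1, among those higher, reached 1 TPM only in the Ly6d-high libraries. The duct keratin Krt19 fell from 14070 ± 102 to 8936 ± 344 TPM.

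Markers of other cells also differed between the groups, and their part in the levels of the 6 genes was not tested. Over all tested genes, 2.32% were higher and 1.84% lower under overexpression, and 8.64% higher and 1.17% lower in Ly6d-high cells. Of the 8 tumour epithelium markers, 1 was lower and none higher under overexpression. In Ly6d-high cells 4 of these 8 were lower and 1 higher. Islet markers were lower under overexpression in 12 of 14 cases, with sums of 1309 to 1478 CPM in WT and 629 to 688 CPM in overexpression, and in Ly6d-high cells 4 of 11 were lower and 1 higher. Islet sums were 779 and 734 TPM in Ly6d-low and 498 and 432 TPM in Ly6d-high libraries. Endothelial markers were lower under overexpression in 6 of 9 cases (sums 301 to 306 and 153 to 184 CPM) and in none of 6 in Ly6d-high cells. Endothelial sums were 79.0 and 86.3 TPM in Ly6d-low and 100 and 127 TPM in Ly6d-high libraries. Fibroblast markers were higher in 2 of 8 and in 0 of 8 cases. Their sums were large in both groups of the first comparison, 5240 and 5822 CPM in WT and 6244 and 6220 CPM in overexpression. That was 0.524 to 0.624% of reads, against 0.139 to 0.154% in the Ly6d-low and Ly6d-high libraries. What this says about the assignment of the overexpression columns was not tested. Of the pan-leukocyte markers 5 of 6 were higher under overexpression (sums 13.9 to 15.7 and 56.6 to 68.6 CPM) and 1 of 5 in Ly6d-high cells. Pan-leukocyte sums were 21.3 and 21.6 TPM in Ly6d-low and 35.9 and 34.7 TPM in Ly6d-high libraries. The defining leukocyte gene Ptprc was at 1.82 and 1.55 CPM in WT, 10.7 and 10.3 CPM in overexpression, and at most 0.172 TPM in the other table. Macrophage markers were higher in 6 of 10 and 4 of 7 cases, neutrophil markers in 7 of 9 and 2 of 3, and plasma and B cell markers in 3 of 5 and 4 of 5. Macrophage sums were 81.9 and 85.5 CPM in WT and 237 and 242 CPM in overexpression. They were 70.8 and 67.0 TPM in Ly6d-low and 207 and 198 TPM in Ly6d-high libraries. Neutrophil sums were 57.2 and 55.6 CPM in WT and 172 and 186 CPM in overexpression. They were 67.8 and 70.3 TPM in Ly6d-low and 173 and 208 TPM in Ly6d-high libraries. All 4 plasma and B cell markers called in Ly6d-high cells, and Laptm5, the pan-leukocyte marker called there, reached 1 TPM only in the Ly6d-high libraries. Under overexpression 4 of the 7 neutrophil markers called (Ngp, Camp, Retnlg and Mmp8) passed the filter only through the overexpression libraries. So did Ighm among the plasma and B cell markers. S100a8 (0.663 and 0.388 CPM in WT) and Mzb1 (0.607 and 0.0647 CPM in WT) reached the filter level of 0.554 CPM in only 1 WT library.

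The genes nearest to each member were sought over the 8 libraries by the distance between log2(value + 1) profiles centred within each table, among 12451 protein-coding genes. For Cckar they were Tmem229a (distance 0.432), Fam174b (0.441) and Cbs (0.481), with a median of 2.95 over all genes. Fam174b, for example, was at 9.94 and 9.77 CPM in WT, 1.75 and 1.9998 CPM in overexpression, 1.17 and 1.04 TPM in Ly6d-low and 11.01 and 12.5 TPM in Ly6d-high cells. Nr5a2 was nearest to Chdh (0.314), Dsc2 and Ttpa; Rbpjl to Shank2 (0.439), Mat1a and Mmd2; Bhlha15 to Mgll (0.432), Slc39a5 and Chac1; and Ptf1a to Slc1a1 (0.450), 9530077C05Rik and Cish. None of the 6 genes was among the 3 nearest of another, the smallest distance between members being 1.149, between Bhlha15 and Nr5a2, and the largest 2.90, between Gata4 and Cckar. Gata4 was nearest to Xpo7 (0.0962), Luc7l and Tra2a, whose values also differed little between groups; Xpo7 was at 66.3 and 60.7 CPM in WT and at 57.4 and 59.1 CPM in overexpression.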

How the data were processed

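The submitters' processing notes name fastp, HISAT2, featureCounts and DESeq2 with no version, and mm9 as the build. No source used here gives the strand setting. The deposited tables carry GRCm38 coordinates: 54409 genes were found in GENCODE M21, 98.3% with the same position, all 6 members among them. The deposited count table holds raw counts for WT and overexpressing cells. The deposited TPM table, which holds both groups sorted by Ly6d level, was computed by the authors over the listed gene length, a column in bases and of no other unit. No label matched 2 other sample columns, which were left out. Names of 27 genes differed between tables and were taken from the count table.

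The members and lists were chosen with earlier results of these data known. The count comparison used edgeR 4.0.16 under R 4.3.3 (filterByExpr, TMM, glmQLFit and glmQLFTest), over all genes. TPM are not counts, so log2(TPM + 1) was tested with limma 3.58.1 (limma-trend) over genes reaching 1 TPM in at least 2 libraries. Benjamini-Hochberg adjusted p-values under 0.05 over all tested genes were called. CPM are counts scaled to the total of a library. Reads recovered from TPM and length were whole within 0.1 reads in 100% of values; edgeR on these was an alternative. Other alternatives were DESeq2 1.42.0, limma-voom, other scalings, pseudocounts of 0.1 and 0.5, no filter, a replicate block and leaving out each library. The scripts were tested on simulated data. Genes named, besides the 6 and Ly6d, were up to 4 with the lowest p among those past the threshold of each list in either comparison, and the direct partners and closest paralogs of the members; others are marked. The 3 nearest genes were named for members with a mean of at least 0.5 CPM and 0.5 TPM.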

Additional observations from a re-analysis of the deposited data

How the results depend on the processing

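Called genes in the overexpression comparison numbered 656 (366 higher, 290 lower), 1187 with no filter, and 571 to 1258 when each library was left out. In the Ly6d-high comparison there were 1435 (1264 higher, 171 lower): 948 with TMM factors on the TPM (702 higher, 246 lower, the median of all genes moving from 0.25 to 0.01), 531 with no filter, 1815 with edgeR on recovered reads (1224 higher, 591 lower), 3417 when those reads were not filtered (an alternative chosen after seeing the data), and 387 without Ly6d-high replicate 2 to 4764 without Ly6d-high replicate 1. The replicate numbers shared by the groups are not said to pair libraries, and deviations of same-numbered libraries correlated at 0.000289 and 0.0681 over genes; a fit with the number as a block called 459 and 4179 genes. Under overexpression Cckar, Rbpjl and Nr5a2 passed in all 10 alternatives, Bhlha15 in 9 and Gata4 in none. In Ly6d-high cells Cckar passed in all 11, Ptf1a and Nr5a2 in 9, Rbpjl in 5 and Gata4 in none; without Ly6d-high replicate 2, Cckar was the only one called. The Gata4 difference there was -0.065 with TMM factors, -0.11 with edgeR on recovered reads, with and without the filter, and -0.0015 to 0.25 when each library was left out. With a library left out, the lone one of its group is assumed to vary like the others. Depth limits Ptf1a most, with 0 to 34 reads a library.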
